A study of Mus musculus with 8 samples.

Results

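Collagen and laminin genes were followed in the postnatal testis of mice with and without a Vrk1 gene trap. Members were the probes, other than controls, whose gene name in the array files was Col, a number, a and a number, or Lama, Lamb or Lamc and a number. The rule found 99 of 41174 probes, for 51 genes, of which 40 were collagens and 11 laminins. RNA came from testes of male mice at postnatal day 8, with 4 biological replicates of each genotype and 1 Agilent array per replicate. Vrk1 codes for a nuclear protein kinase. VRK1-deficient mice carried a gene trap with the reporter β-geo in an intron of Vrk1, from the embryonic stem cell line RRR178, in mice crossed to C57BL/6. The trapped allele is hypomorphic, so some Vrk1 transcript can remain. All groups were of the same age, tissue and sex, and no treatment is named in the labels. The labels and methods do not say whether a replicate was 1 animal or a pool.

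Every value is a log2 intensity relative to the 75th percentile of its array, and every log2 change is VRK1-deficient minus wild type. Values of a group are given in the order of replicates 1, 2, 3 and 4. Vrk1 itself measured -0.20, -0.12, 0.59 and 0.35 in wild type testes and -3.97, -3.68, -3.58 and -4.17 in VRK1-deficient testes, a log2 change of -4.00 ± 0.21 (SE) with an adjusted p of 0.000135 in limma. The 2 slides each held 2 replicates of both genotypes, but the VRK1-deficient samples took array positions 3 and 4 on both, so position and genotype cannot be told apart. Wild type replicate 1 stood apart from its group. Across tested probes it correlated at 0.987 to 0.99 with the VRK1-deficient arrays and at 0.97 to 0.986 with the other wild type arrays. Wild type replicate 3 had the same range with the other wild type arrays, but correlated less with the VRK1-deficient arrays, at 0.963 to 0.976. Leading counts are given with and without wild type replicate 1. That array was singled out in these same data for lying near the VRK1-deficient arrays. Leaving it out therefore favours calls, and such values are no independent support for any gene. Of all tested probes, 986 were called with it and 7659 without it.

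Collagens are proteins of 3 chains wound into a triple helix, in which glycine returns at each turn of the sequence, as the first residue of a short repeat. Basement membranes are thin sheets under epithelia and around muscle and vessels, built from a laminin network and a network of type IV collagen joined by nidogen and perlecan. Each laminin holds an alpha, a beta and a gamma chain, from the Lama, Lamb and Lamc genes. In the testis, Sertoli cells and peritubular myoid cells lay down the basement membrane of the seminiferous tubule, whereas fibrillar collagens such as types I and III fill the connective tissue around tubules and vessels.

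The glycine repeat can be read directly in the probes that lie in the coding sequence of a helix. Of 78 collagen probes, 3 had a glycine codon, GGN, at every 9 bases from end to end, and these were the only such probes among all 41174 on the array. They are shown because each measured another part of a fibrillar collagen whose brightest probe is described with the fibrillar genes. Glycine codons are in capitals and the 5′ end of each 60-base probe is at the left.
Col11a2 (A_52_P563285): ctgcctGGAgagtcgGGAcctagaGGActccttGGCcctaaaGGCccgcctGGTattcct
Col5a1 (A_52_P237371): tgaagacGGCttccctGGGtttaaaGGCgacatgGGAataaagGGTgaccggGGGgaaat
Col5a3 (A_52_P503796): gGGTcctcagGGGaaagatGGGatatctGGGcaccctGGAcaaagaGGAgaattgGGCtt
The first probe held 6 such codons, the second 6 and the third 7, with no stop codon in that frame. On build mm7 the Col11a2 probe lay at chr17:32131401-32131567, the Col5a1 probe at chr2:27994034-27996457 and the Col5a3 probe at chr9:20655471-20656200. Each span is longer than 60 bases.

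For a test, a probe had to exceed background clearly on 4 or more of the 8 arrays, and 77 of the 99 probes did so, for 47 genes. Another 16 did so on no array. Col10a1 of hypertrophic cartilage, Col12a1, Col19a1 and Col28a1 had no tested probe. Where a gene had several probes, the brightest tested one stands for it. In all, 3 of 77 probes (3.9%) changed at an adjusted p under 0.05 in limma, against 3.66% of all 26962 tested probes. The one that rose measured Col25a1 (all probes, 1.67% higher). The pair that fell measured Col22a1 and Col11a2 (all probes, 1.98% lower). By the brightest probe, 1 gene was called higher (Col25a1) and 1 lower (Col11a2). Without wild type replicate 1, 28 of the 77 probes (36.4%) were called higher and 4 (5.19%) lower, against 13.7% and 14.7% of all probes. By gene, 21 were then called higher and 3 lower. Leaving out any one of the other 7 arrays gave 0 called member probes in limma, with 20 to 28 at an unadjusted p under 0.05, and those fits called 3 to 68 of all 26962 tested probes. Every call at the threshold thus depended on which arrays were included. Counts at an unadjusted p are given in this report without a share over all probes, so no excess can be read from them.

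Counts of direction need no threshold. The log2 change was above 0 for 59 of 77 member probes (76.6%) and for 54.5% of all tested probes. The median over the 47 genes was 0.27, beside 0.04 over all tested probes. VRK1-deficient and wild type arrays did not overlap for 23 member probes (29.9%; all probes, 16.7%). Of these, 18 lay higher in VRK1-deficient testes (23.4%; all probes, 9.39%) and 5 lower (6.49%; all probes, 7.31%). At day 8 the testis is a mixture, and in whole tissue fewer cells of a type and less RNA per cell cannot be told apart.

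**Figure D1:**
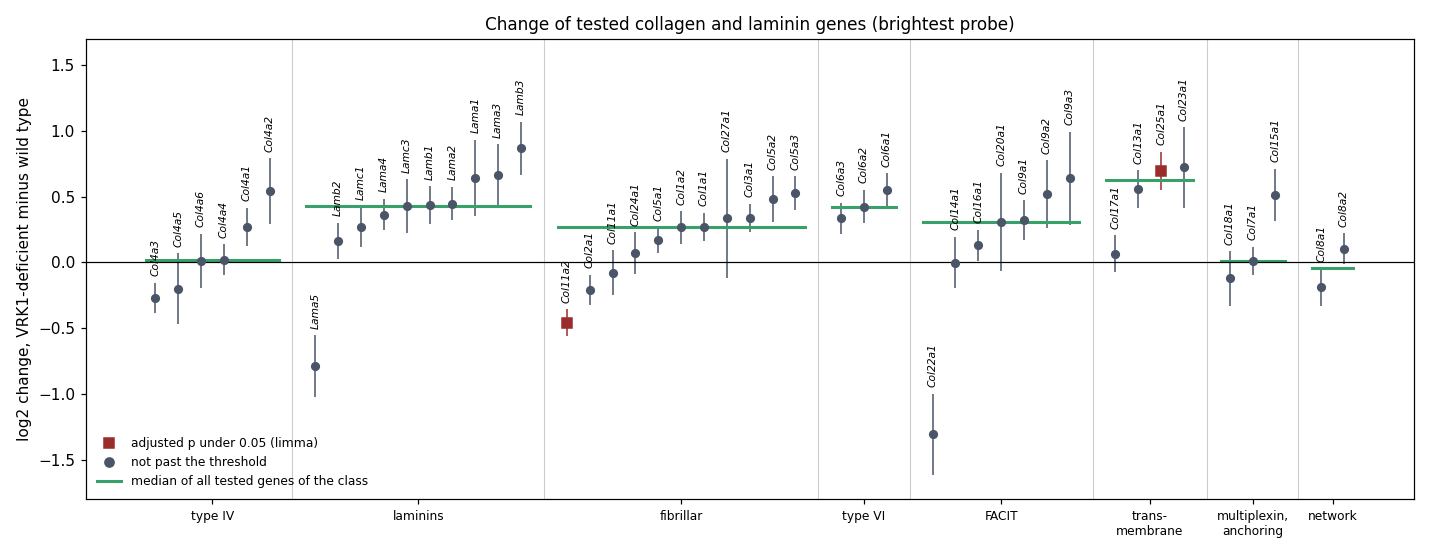
Log2 change, VRK1-deficient minus wild type, of the brightest tested probe of the genes reported here by name, by class, with the standard error of the fit as bars (4 arrays per genotype). Green lines are medians over all tested genes of a class, and squares mark the genes past the threshold, Col25a1 and Col11a2. The medians of the laminins (0.43), type VI collagens (0.42) and fibrillar collagens (0.27) lay above 0, that of type IV collagens lay at 0.02, and Lama5 and Col22a1 lay far below the others of their class.

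Basement membrane and fibrillar genes were set against each other as classes. All 17 basement membrane genes (6 type IV collagens and 11 laminins) and all 11 fibrillar genes were tested. Their medians were nearly equal, 0.27 for either class. The log2 change was above 0 for 13 of 17 basement membrane genes and 8 of 11 fibrillar genes. Among basement membrane probes, 0 of 30 were called by limma, with 10 at an unadjusted p under 0.05. The methods' t-test, adjusted in the same way, called 0, with 11 at an unadjusted p under 0.05. The study's own cutoff for that t-test was a p of 0.05, with no adjustment named. Limma with an intensity trend called 3. Among fibrillar probes, 1 of 19 was called by limma, that of Col11a2, and it was lower, with 5 at an unadjusted p under 0.05. For these the adjusted t-test called 1, with 7 at an unadjusted p under 0.05, and limma with an intensity trend called 2. Of all 26962 tested probes, limma called 986 in the main fit, and 862 higher and 1054 lower with the trend. The adjusted t-test called 162 of 26955. Without wild type replicate 1 the medians were 0.39 and 0.33, and 7 basement membrane genes were called higher and 1 lower, against 5 and 1 fibrillar genes. Of all tested probes, 13.7% were then called higher and 14.7% lower.

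The mean of the basement membrane genes was 0.77, 0.54, 0.40 and 0.57 on the wild type arrays and 0.78, 0.73, 0.85 and 0.80 on the VRK1-deficient arrays. The genotypes overlapped, since wild type replicate 1 exceeded VRK1-deficient replicate 2. The fibrillar mean was 0.99, 0.82, 0.88 and 0.65 in wild type testes and 1.10, 1.02, 0.94 and 0.92 in VRK1-deficient testes, again overlapping through wild type replicate 1. The difference between both means on the same array, basement membrane minus fibrillar, was -0.22, -0.28, -0.48 and -0.08 in wild type testes. It was -0.31, -0.29, -0.08 and -0.12 in VRK1-deficient testes. The wild type range covered the VRK1-deficient range, with a group difference of 0.06 against an SD of 0.17 among wild type and 0.12 among VRK1-deficient arrays. This group difference was -0.05 on slide 1 and 0.18 on slide 2. The difference between the classes was smaller than the spread between replicates.

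Laminins and type IV collagens were also taken separately. The laminin mean was 0.45, 0.21, -0.06 and 0.18 in wild type and 0.50, 0.48, 0.50 and 0.52 in VRK1-deficient testes. All VRK1-deficient arrays lay above all wild type arrays, by 0.31 on average, with an SD of 0.02 among them and 0.21 among wild type arrays. The type IV mean was 1.36, 1.15, 1.24 and 1.29 in wild type and 1.30, 1.17, 1.5 and 1.31 in VRK1-deficient testes, with overlap and a difference of 0.06. The laminin mean minus the type IV mean was -0.91, -0.94, -1.30 and -1.11 in wild type and -0.81, -0.69, -1.01 and -0.79 in VRK1-deficient testes, so on this measure the genotypes overlapped. By slide, the laminin difference was 0.16 on slide 1, which held wild type replicate 1, and 0.45 on slide 2.

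**Figure D2:**
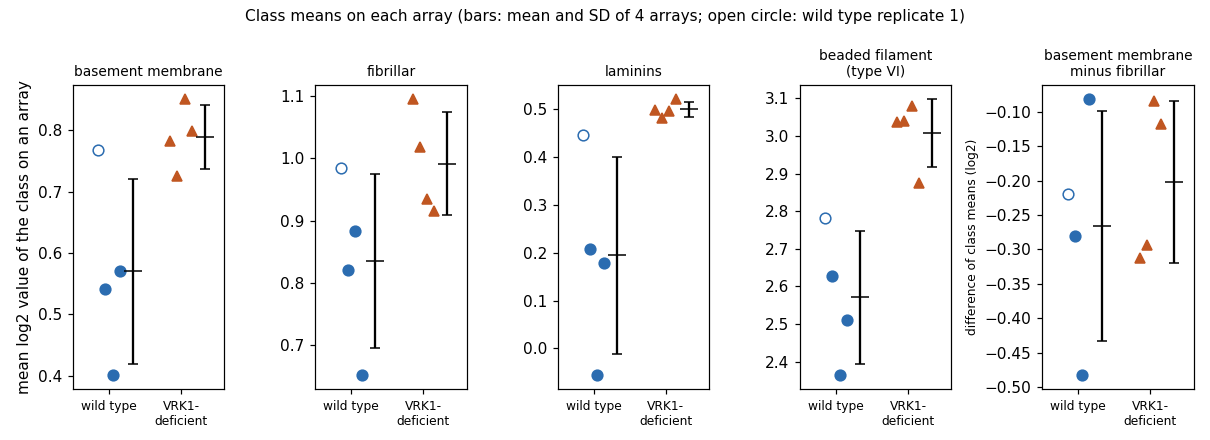
Mean log2 value of the tested genes of a class on each array, for wild type (circles) and VRK1-deficient testes (triangles), with the mean and SD of 4 arrays beside them; the right panel is the basement membrane mean minus the fibrillar mean. The laminin and type VI means of the 4 VRK1-deficient arrays lie above all wild type arrays, while in the right panel the genotypes overlap.

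Type IV collagen is encoded by 6 genes that lie in head-to-head pairs. In RefSeq (GRCm38.p6) the starts of Col4a1 and Col4a2 lie 21 bases apart on opposite strands of chromosome 8, and those of Col4a5 and Col4a6 lie 1343 bases apart on chromosome X. Col4a1 and Col4a2 code for the chains of the type IV network found in nearly all basement membranes. Col4a1 measured 4.35, 3.92, 3.89 and 3.84 in wild type and 4.35, 4.38, 4.32 and 4.04 in VRK1-deficient testes. Wild type replicate 1 was as high as the VRK1-deficient arrays, whereas the other wild type arrays lay below all of them. The log2 change was 0.27 ± 0.15 (SE), with an adjusted p of 0.253 in limma. Col4a2 measured 4.19, 3.76, 2.83 and 3.67 in wild type and 4.16, 4.04, 4.19 and 4.22 in VRK1-deficient testes. Again only wild type replicate 1 reached the VRK1-deficient range, and the change was 0.54 ± 0.25 (SE), adjusted p = 0.187. Second probes of the pair changed by 0.43 and 0.81 and were not called. Without wild type replicate 1, the changes of the brightest probes were 0.39 (adjusted p = 0.0418) and 0.74 (adjusted p = 0.0367).

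Col4a3 and Col4a4 code for chains that join the product of Col4a5 in the network of the kidney glomerulus, and that are mutated in Alport syndrome. Col4a3 measured 0.35, 0.41, 0.64 and 0.65 in wild type and 0.30, 0.27, 0.28 and 0.11 in VRK1-deficient testes. Each VRK1-deficient array was lower than each wild type array, opposite to Col4a1 and Col4a2, with a change of -0.27 ± 0.12 (SE) that did not pass the threshold (adjusted p = 0.159). Its second probe also separated the genotypes, with a change of -0.31. Col4a4 measured 2.44, 2.46, 2.73 and 2.41 in wild type and 2.45, 2.45, 2.60 and 2.63 in VRK1-deficient testes. The genotypes overlapped at 0.02 ± 0.12 (SE), and its other probe differed in sign at -0.15.

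Col4a5 and Col4a6 are the X-linked type IV genes. Col4a5 measured -4.01, -4.44, -3.18 and -3.55 in wild type and -4.03, -4.34, -3.60 and -4.02 in VRK1-deficient testes, with a spread in either genotype wider than the change of -0.20. Col4a6 measured 0.80, 0.80, 0.53 and 0.73 in wild type and 0.60, 0.21, 1.23 and 0.87 in VRK1-deficient testes. VRK1-deficient arrays lay both below and above the wild type range, and the change was 0.01 ± 0.20 (SE). Other probes of Col4a6 changed by 0.27 and 0.47 and were not called.

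Laminin alpha chains carry the globular domains that bind cell receptors. Lama2, the alpha chain of muscle and nerve basement membranes, measured 3.86, 3.61, 3.41 and 3.56 in wild type and 4.20, 4.07, 4.02 and 3.94 in VRK1-deficient testes. The genotypes did not overlap, with a change of 0.45 ± 0.13 (SE) and an adjusted p of 0.0688 in limma. Its second probe also separated the genotypes, at 0.59. Lama4, the alpha chain of vessel basement membranes, measured 1.13, 0.91, 0.68 and 0.78 in wild type and 1.24, 1.27, 1.24 and 1.21 in VRK1-deficient testes. Every VRK1-deficient array exceeded every wild type array, at 0.36 ± 0.12 (SE) (adjusted p = 0.0964). All 3 tested probes of Lama4 separated the genotypes in this direction, with the others at 0.45 and 0.56.

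Lama1, an alpha chain of early epithelial basement membranes, measured 0.41, -0.26, -1.11 and -0.45 in wild type and 0.48, 0.11, 0.01 and 0.54 in VRK1-deficient testes. Wild type replicate 1 lay within the VRK1-deficient range and the other wild type arrays below it, with a change of 0.64 ± 0.29 (SE) (adjusted p = 0.179). Lama3, the alpha chain that anchors skin epithelium, measured 0.11, -0.48, -1.0 and -0.84 in wild type and 0.40, -0.02, 0.00 and 0.06 in VRK1-deficient testes. The pattern was that of Lama1, with wild type replicate 1 alone among the VRK1-deficient values and a change of 0.66 ± 0.23 (SE) (adjusted p = 0.109). Without wild type replicate 1, Lama1 changed by 0.90 (adjusted p = 0.022) and Lama3 by 0.89 (adjusted p = 0.00779). The dimmer probes of these genes changed by 0.18 for Lama1 and 0.17 for Lama3.

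Lama5, an alpha chain of most mature epithelia, had a change below 0. It measured -0.28, 0.55, 0.49 and 0.27 in wild type and -0.85, -0.85, -0.17 and -0.25 in VRK1-deficient testes. Wild type replicate 1 lay among the VRK1-deficient arrays, and the other wild type arrays lay above all of them. The change was -0.79 ± 0.23 (SE) with an adjusted p of 0.076 in limma, the lowest change among the laminins, and -0.97 (adjusted p = 0.0115) without wild type replicate 1. Only 1 probe measured Lama5, and the position in the array files covers 15 bases of it.

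Lamb1 and Lamc1 code for the most widely used beta and gamma chains. Lamb1 measured 2.16, 1.97, 2.49 and 2.33 in wild type and 2.51, 2.55, 2.77 and 2.85 in VRK1-deficient testes. The genotypes did not overlap, with a change of 0.44 ± 0.14 (SE) (adjusted p = 0.0955). Here wild type replicate 1 did not lie near the VRK1-deficient arrays. Lamc1 measured 3.69, 3.51, 3.26 and 3.26 in wild type and 3.89, 3.87, 3.40 and 3.65 in VRK1-deficient testes. Both genotypes overlapped through wild type replicates 1 and 2, at 0.27 ± 0.16 (SE) (adjusted p = 0.273). Lamb2, the beta chain of the neuromuscular junction and the glomerulus, measured 4.07, 3.58, 3.57 and 3.69 in wild type and 3.95, 3.78, 3.85 and 3.99 in VRK1-deficient testes. Wild type replicate 1 was the highest of all 8 arrays, the other wild type arrays were the lowest, and the change was 0.17 ± 0.14 (SE) (adjusted p = 0.441).

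Lamb3 codes for the beta chain that pairs with the product of Lama3 in the anchoring laminin of skin. Lamb3 measured -5.11, -5.58, -6.08 and -5.47 in wild type and -4.94, -4.52, -4.54 and -4.76 in VRK1-deficient testes. Signals clearly exceeded background on 3 wild type and all VRK1-deficient arrays, and the genotypes did not overlap. The change of 0.87 ± 0.20 (SE) missed the threshold (adjusted p = 0.0508), and it was 0.49 with normexp background correction. Lamc3, another gamma chain, measured -0.55, -1.02, -1.45 and -0.78 in wild type and -0.35, -0.35, -0.58 and -0.81 in VRK1-deficient testes. Its genotypes overlapped at 0.43 ± 0.20 (SE) (adjusted p = 0.194), and all 3 of its tested probes had a change above 0.

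**Figure D3:**
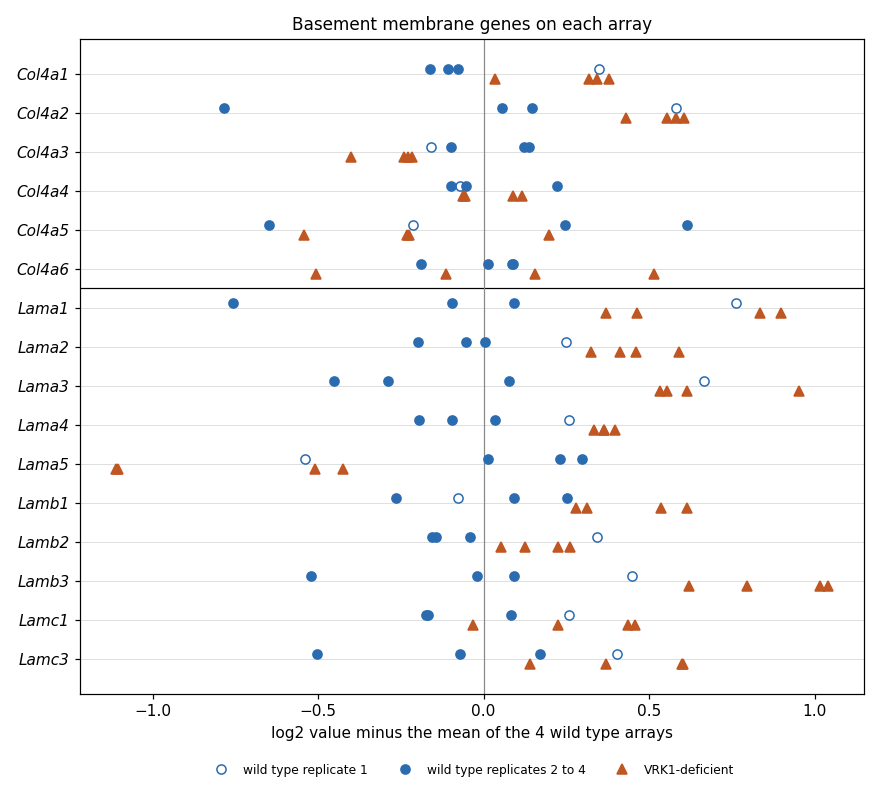
Value of the named basement membrane genes on each array, as log2 minus the mean of the 4 wild type arrays, with type IV collagens above the line and laminins below it. Wild type replicate 1 (open circle) lies among the VRK1-deficient arrays (triangles) for Col4a1, Col4a2, Lama1, Lama3 and Lama5, while the genotypes do not overlap for Col4a3, Lama2, Lama4, Lamb1 and Lamb3.

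Type I collagen, the main fibre of connective tissue, is made from 2 genes. Col1a1 measured 5.35, 5.16, 5.14 and 5.07 in wild type and 5.47, 5.43, 5.53 and 5.36 in VRK1-deficient testes. The genotypes did not overlap, although the step was small, at 0.27 ± 0.11 (SE) or 1.21-fold (adjusted p = 0.14). Other tested probes of Col1a1 overlapped between genotypes, at 0.53 and 0.36. Col1a2 measured 7.32, 7.04, 6.87 and 6.93 in wild type and 7.38, 7.33, 7.28 and 7.23 in VRK1-deficient testes. The change was about that of Col1a1, at 0.27 ± 0.12 (SE) (adjusted p = 0.191), but wild type replicate 1 overlapped the VRK1-deficient arrays. Col3a1, the collagen of reticular fibres, measured 5.11, 5.07, 5.04 and 4.94 in wild type and 5.49, 5.43, 5.37 and 5.24 in VRK1-deficient testes. Every VRK1-deficient array was higher, at 0.34 ± 0.11 (SE) (adjusted p = 0.0832). A second tested probe of Col3a1 overlapped between genotypes, at 0.39.

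Type V collagens are built into type I fibrils and set their diameter. Col5a1 measured 3.02, 3.03, 3.06 and 3.00 in wild type and 3.24, 3.19, 3.29 and 3.06 in VRK1-deficient testes. The wild type arrays lay close together (SD 0.02) and all below the VRK1-deficient arrays, at 0.17 ± 0.10 (SE) (adjusted p = 0.29). Col5a2 measured 0.52, 0.24, -0.24 and 0.33 in wild type and 0.90, 0.76, 0.63 and 0.48 in VRK1-deficient testes. Its genotypes overlapped through wild type replicate 1, at 0.48 ± 0.18 (SE) (adjusted p = 0.118). Col5a3 measured 1.18, 1.25, 1.65 and 1.34 in wild type and 1.81, 1.92, 1.96 and 1.83 in VRK1-deficient testes. No array overlapped, wild type replicate 1 was the lowest of all, and the change of 0.53 ± 0.13 (SE) just missed the threshold (adjusted p = 0.0537).

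Types II and XI are the fibrillar collagens of cartilage. Col11a2 measured -2.69, -2.93, -2.80 and -2.86 in wild type and -3.26, -3.30, -3.30 and -3.26 in VRK1-deficient testes. All VRK1-deficient arrays were lower and lay close together (SD 0.02). The gene fell by 0.46 ± 0.10 (SE) on the log2 scale, to 72.7% of wild type, with an adjusted p of 0.0483 in limma, and by 0.42 (adjusted p = 0.0161) without wild type replicate 1. The change was -0.47 on slide 1 and -0.45 on slide 2. Leaving out any one other array ended this call (adjusted p from 0.0675 to 0.148), and with normexp background correction the change was -0.03 (adjusted p = 0.879). Over its 20 alternatives the adjusted p lay between 0.0161 and 0.879. The probe lay at chr17:32145178-32145237 on mm7. Col2a1 measured -3.07, -2.76, -2.83 and -2.74 in wild type and -3.06, -3.11, -2.92 and -3.14 in VRK1-deficient testes, overlapping at -0.21 ± 0.12 (SE). Col11a1 measured -0.54, -0.89, -0.48 and -0.80 in wild type and -0.47, -0.55, -0.91 and -1.09 in VRK1-deficient testes, with the genotypes interleaved at -0.08 ± 0.17 (SE).

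Col24a1 and Col27a1 code for further fibrillar collagens. Col24a1 measured -3.65, -3.78, -3.59 and -3.92 in wild type and -3.41, -3.81, -3.98 and -3.46 in VRK1-deficient testes, with full overlap at 0.07 ± 0.16 (SE). Col27a1 measured -1.72, -2.39, -2.10 and -4.13 in wild type and -2.05, -2.10, -2.66 and -2.18 in VRK1-deficient testes. Wild type replicate 4 was far below the other arrays, and without it the change of 0.34 turned to -0.18. Its second probe changed by 0.32.

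The 3 probes with the glycine repeat changed by values near 0. All were dimmer than the brightest probe of their gene. Wild type means were -4.61 beside -2.82 for Col11a2, -2.52 beside 3.03 for Col5a1 and -5.23 beside 1.35 for Col5a3. The Col11a2 helix probe measured -4.45, -4.55, -4.79 and -4.66 in wild type and -4.64, -4.41, -4.77 and -4.83 in VRK1-deficient testes, a change of -0.05 ± 0.13 (SE) beside -0.46 at the brightest probe. The Col5a3 helix probe, well above background on 3 of 4 arrays of either genotype, changed by 0.03 ± 0.31 (SE), beside 0.53. The Col5a1 helix probe changed by -0.03 ± 0.16 (SE), beside 0.17. All 3 overlapped between genotypes, and none was called. Over the 25 genes with several tested probes, signs differed for 2, Col5a1 and Col4a4, and calls differed for 2, Col11a2 and Col22a1.

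**Figure D4:**
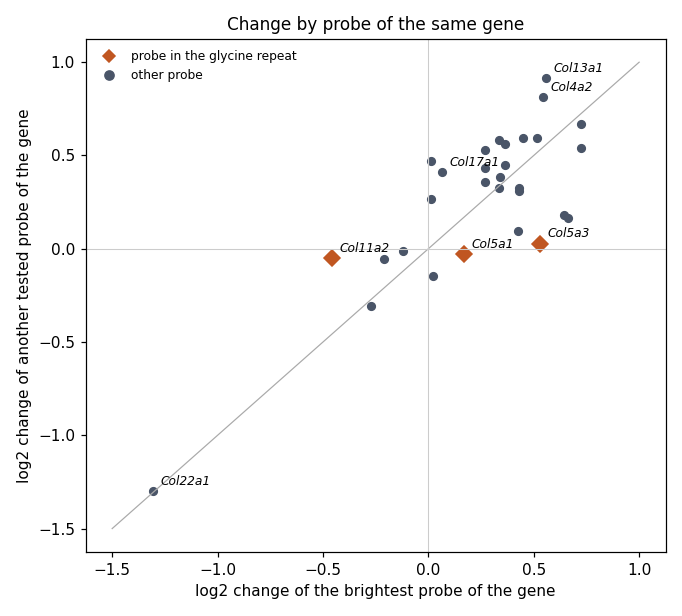
Log2 change of the brightest probe (horizontal) and of every other tested probe of the same gene (vertical), with the line of equal change. The 3 probes in the glycine repeat (diamonds) lie between -0.05 and 0.03 on the vertical axis, beside -0.46, 0.53 and 0.17 at the brightest probes of Col11a2, Col5a3 and Col5a1, while the Col22a1 probes lie together at -1.31 and -1.30.

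Type VI collagen forms beaded microfilaments beside basement membranes, from 3 genes here. Col6a1 measured 3.1, 2.95, 2.63 and 2.80 in wild type and 3.46, 3.40, 3.51 and 3.31 in VRK1-deficient testes. Col6a2 measured 1.86, 1.65, 1.47 and 1.54 in wild type and 2.07, 2.08, 2.18 and 1.89 in VRK1-deficient testes. Col6a3 measured 3.38, 3.29, 3.00 and 3.19 in wild type and 3.59, 3.64, 3.54 and 3.43 in VRK1-deficient testes. At the brightest probe of each gene, all VRK1-deficient arrays lay above all wild type arrays. The changes were 0.55 ± 0.13 (SE) for Col6a1 (adjusted p = 0.0508), 0.42 for Col6a2 (adjusted p = 0.076) and 0.34 for Col6a3 (adjusted p = 0.108), all above the threshold of 0.05. Without wild type replicate 1, all 3 were called, with changes of 0.63, 0.50 and 0.39. The second tested probes of Col6a2 and Col6a3 overlapped between genotypes, at 0.09 and 0.58, and were not called with all arrays.

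Among the collagens that sit on the surface of other fibrils, the FACIT group, Col22a1 is known from tissue junctions such as that of muscle and tendon. Its brightest probe measured 0.18, 1.21, 1.53 and 1.43 in wild type and -0.69, 0.13, 0.05 and -0.38 in VRK1-deficient testes. VRK1-deficient arrays were all lower, and wild type replicate 1 was nearest to them. This probe changed by -1.31 ± 0.31 (SE), the lowest of the 47 genes, and missed the threshold (adjusted p = 0.0517). The other probe, at chr15:71881125-71881184 on mm7, measured 0.27, 1.00, 1.09 and 0.92 in wild type and -0.78, -0.14, -0.40 and -0.60 in VRK1-deficient testes. It fell by 1.30 ± 0.21 (SE) on the log2 scale, by 1.10 on slide 1 and 1.5 on slide 2, and was called (adjusted p = 0.0392 in limma). Leaving out any one array other than wild type replicate 1 ended that call. Both probes were called without wild type replicate 1, at -1.61 and -1.49.

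The other FACIT genes overlapped between genotypes. Col9a2 and Col9a3, cartilage partners of type II fibrils, changed by 0.52 and 0.64 and were not called with all arrays, whereas both were called without wild type replicate 1 (adjusted p = 0.0196 and 0.0072). Col9a1 changed by 0.32, Col20a1 by 0.31, Col16a1 by 0.13 and Col14a1 by 0.00.

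Transmembrane collagens stay anchored in the cell that makes them, and all 4 had a change above 0. Col25a1, a collagen of neurons whose shed form is found in amyloid plaques, measured -3.76, -3.95, -3.99 and -4.23 in wild type and -3.00, -3.34, -3.46 and -3.36 in VRK1-deficient testes. The genotypes did not overlap. The gene rose by 0.69 ± 0.15 (SE), 1.62-fold, with an adjusted p of 0.0473 in limma, and its change was 0.69 on slide 1 and 0.70 on slide 2. Leaving out any one array other than wild type replicate 1 ended the call (adjusted p from 0.0698 to 0.147). The called probe lay at chr3:130426524-130431606 on mm7, and both other Col25a1 probes were too dim to test. Col13a1, a collagen of cell adhesion sites, measured 1.32, 0.98, 0.84 and 0.84 in wild type and 1.73, 1.57, 1.37 and 1.54 in VRK1-deficient testes. Its genotypes did not overlap either, at 0.56 ± 0.14 (SE) (adjusted p = 0.0586). A second tested probe of Col13a1 overlapped between genotypes, at 0.91. Col23a1 changed by 0.72 with overlap. Col17a1, of the hemidesmosome, changed by 0.07 at its brightest probe, with overlap, and by 0.41 at its second probe, without overlap (adjusted p = 0.0786).

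Col15a1 and Col18a1 code for collagens of the basement membrane zone. Col15a1 changed by 0.51 ± 0.20 (SE) with overlap, and its dimmer probe, above background on 2 wild type and all VRK1-deficient arrays, by 0.60 without overlap. Neither was called. Col18a1, the source of endostatin, changed by -0.12 ± 0.21 (SE), and Col7a1 of the anchoring fibrils by 0.01. The network collagens Col8a1 and Col8a2 changed by -0.19 and 0.11, and none of these was called.

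**Figure D5:**
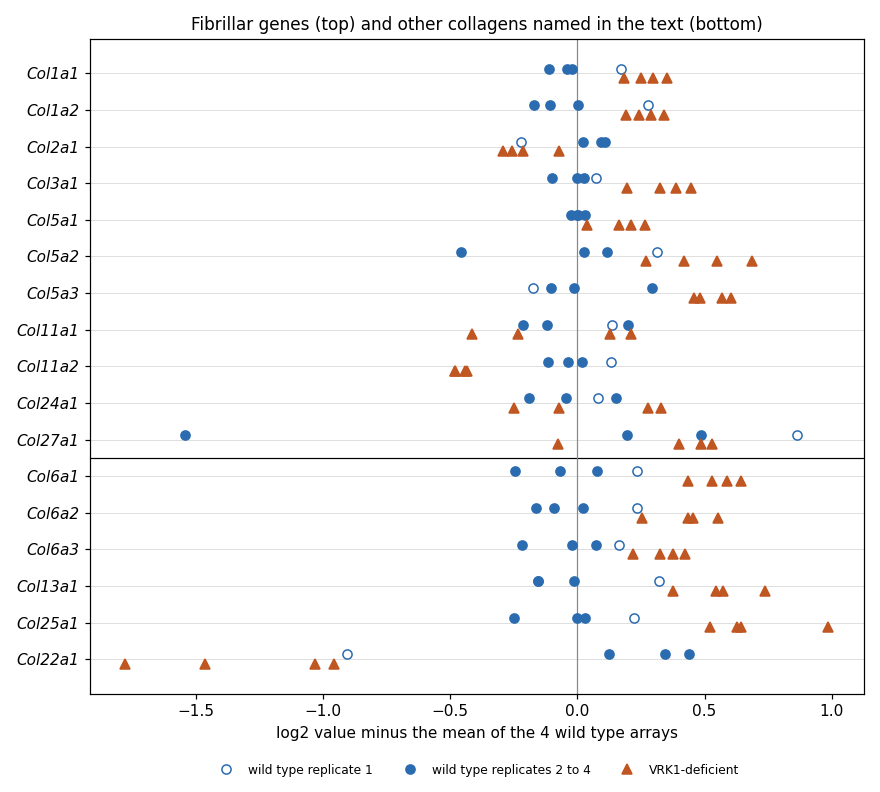
Value of each fibrillar gene (above the line) and of the type VI collagens, Col13a1, Col25a1 and Col22a1 (below it) on each array, as log2 minus the mean of the 4 wild type arrays. Of the fibrillar genes, the genotypes do not overlap for Col1a1, Col3a1, Col5a1, Col5a3 or Col11a2. The 6 genes below the line do not overlap either, but they were chosen because they were called or did not overlap. Among the genes without overlap, Col11a2 and Col22a1 are those whose VRK1-deficient arrays (triangles) lie lower.

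Genes that work with collagens and laminins were read from lists. Other basement membrane proteins had 12 tested genes, of which 8 had a change above 0 (median 0.25). By limma 0 were called, with 5 at an unadjusted p under 0.05. The methods' t-test, adjusted in the same way, called 0, with 5 at an unadjusted p under 0.05. Limma with an intensity trend called 1. Their largest changes were those of Npnt at -1.48, an integrin ligand, Fras1 at 1.29, of the epithelial basement membrane, and Smoc1 at 0.63. Receptors for collagen and laminin had 15 tested genes, 9 with a change above 0 (median 0.07). By limma 0 were called, with 7 at an unadjusted p under 0.05. The methods' t-test, adjusted in the same way, called 1, with 6 at an unadjusted p under 0.05. Limma with an intensity trend called 1. Of all 26962 tested probes, limma called 986 in the main fit, and 862 higher and 1054 lower with the trend. The adjusted t-test called 162 of 26955. Bcam, a laminin receptor, changed by 0.76, Ddr2, a collagen receptor, by 0.68 and Itgb4, of the hemidesmosome integrin, by -0.59.

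Genes for making collagen had 24 tested members, 20 with a change above 0 (median 0.26), and 1 was called (all probes, 3.66%). Crtap, a subunit of the complex that hydroxylates a proline of the collagen chain, measured 3.15, 2.94, 2.77 and 2.88 in wild type and 3.52, 3.44, 3.60 and 3.50 in VRK1-deficient testes. It rose without overlap, by 0.58 ± 0.12 (SE) (adjusted p = 0.0454 in limma). Pcolce2 and Adamts3, which act on procollagen ends, were not called, at -1.01 and -0.50. Both were well above background on all 4 wild type arrays but on only 2 VRK1-deficient arrays for Pcolce2 and 1 for Adamts3, so the VRK1-deficient means rest partly on background.

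Proteins bound to fibrils had 14 tested genes, 11 with a change above 0 (median 0.44), and 3 were called (all probes, 3.66%). Ogn measured 1.85, 1.78, 1.57 and 1.75 in wild type and 2.55, 2.52, 2.54 and 2.87 in VRK1-deficient testes. Lum measured -0.32, -0.13, 0.04 and 0.35 in wild type and 0.57, 1.03, 1.23 and 0.84 in VRK1-deficient testes. Dcn measured 5.64, 5.47, 5.47 and 5.41 in wild type and 6.14, 5.99, 6.13 and 5.96 in VRK1-deficient testes. None of the 3 overlapped between genotypes, and they rose by 0.88 ± 0.12 (SE), 0.93 ± 0.19 (SE) and 0.56 ± 0.11 (SE), with adjusted p-values of 0.0315, 0.0454 and 0.0446 in limma. They code for small leucine-rich proteoglycans, and others of that family on the list were not called, Bgn at 0.53, Fmod at -0.05 and Prelp at -0.52. Postn changed by 0.62 and was not called.

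Enzymes and inhibitors of matrix breakdown had 14 tested genes, 13 with a change above 0 (median 0.42), and 2 were called (all probes, 3.66%). Mmp2, a gelatinase that also cuts type IV collagen, measured 2.34, 1.85, 1.32 and 1.52 in wild type and 2.89, 2.65, 2.76 and 2.66 in VRK1-deficient testes. Ctsk, a lysosomal protease that degrades collagen, measured -1.89, -1.78, -1.78 and -1.58 in wild type and -1.02, -1.08, -1.24 and -0.91 in VRK1-deficient testes. Both rose without overlap, by 0.98 ± 0.21 (SE) and 0.69 ± 0.12 (SE) (adjusted p = 0.0473 and 0.0407). Mmp23 changed by 0.83 and was not called. Over these 5 lists, 6 genes were called with all arrays and 36 without wild type replicate 1. Of all tested probes, 3.66% were called with all arrays, and 13.7% higher and 14.7% lower without wild type replicate 1. Leaving out any one other array ended the calls of Crtap, Lum, Dcn, Mmp2 and Ctsk, whose adjusted p was then at least 0.0599, while that of Ogn ran from 0.0483 to 0.117. With no scaling between arrays 1 gene of the 5 lists was called.

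Markers of the cell types of the testis were read beside these values. Interstitial fibroblast markers were higher in 6 of 6 tested genes, with a mean level of 0.64 to 1.11 in wild type and 1.27 to 1.46 in VRK1-deficient testes, and Pdgfra rose by 0.50 ± 0.11 (SE) (adjusted p = 0.0491). Endothelial markers were higher in 8 of 8 with 0 called by limma, at -1.20 to -0.99 against -1.01 to -0.74. Germ cell markers were lower in 10 of 10, at 1.38 to 2.69 against 0.85 to 1.55, with Tdrd1 and Sall4 called; wild type replicate 1 had the lowest wild type mean, 1.38, inside the VRK1-deficient range. Peritubular myoid markers were lower in 6 of 7, at 3.44 to 3.73 against 3.26 to 3.67, and Cnn1, of smooth muscle, fell by 0.99 ± 0.19 (SE) (adjusted p = 0.0446). The other lower markers of that list overlapped between genotypes, from -0.195 to -0.029. Des changed by 0.33 without overlap and was not called. Sertoli markers were higher in 7 of 12, at 1.73 to 2.23 against 2.03 to 2.29, and Leydig markers in 6 of 8, at 0.18 to 0.68 against 0.50 to 0.98. Of all tested probes, 1.67% were called higher and 1.98% lower, and 54.5% had a change above 0. Leaving out any one array other than wild type replicate 1 ended the calls of Pdgfra, Tdrd1, Sall4 and Cnn1. The part of these cell types in the collagen and laminin values was not tested.

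Other tissues were checked in the same way. Of 7 cartilage markers, Matn1 was well above background on no array, and Matn3 and Ucma were so on no VRK1-deficient array. Cnmd, a cartilage marker, measured -2.27, -5.47, -7.15 and -6.40 in wild type and -1.11, -2.01, -1.69 and -1.95 in VRK1-deficient testes. VRK1-deficient arrays were all higher and wild type replicate 1 was nearest to them, but only 2 wild type arrays were well above background, so no size is given, and the gene was not called. Comp, another cartilage marker, measured -2.58, -1.75, -1.74 and -1.97 in wild type and -3.01, -2.53, -2.48 and -2.67 in VRK1-deficient testes. Its change was below 0, at -0.66 ± 0.21 (SE) (adjusted p = 0.0847), with overlap, while Acan and Hapln1 changed by 0.12 and 0.35. The mean of the 4 tested cartilage markers was -3.60 to -2.60 in wild type and -2.50 to -2.38 in VRK1-deficient testes, and without Cnmd it was -2.71 to -2.36 and -2.81 to -2.54. Of 6 markers of epididymis and rete testis, 4 were tested and all 4 were higher, at -2.39 to -1.41 against -1.48 to -1.06, while Pax8 and Lcn8 were well above background on no array. Mesothelial markers were higher in 3 of 3, at -5.26 to -3.98 against -4.41 to -3.38, and macrophage markers in 6 of 6, at -1.38 to -0.96 against -1.15 to -1.01. Over all tested probes, 54.5% had a change above 0. Red blood cell markers were lower in 3 of 3, at 1.04 to 2.10 against 0.80 to 2.00. Their part in the collagen and laminin values was not tested.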

How the data were processed

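Total testicular RNA from 4 wild type and 4 VRK1-deficient samples, taken at postnatal day 8, had been labeled with Cy3 for 1-colour Agilent Whole Genome Mouse arrays. The submitters' processing notes name Agilent Feature Extraction 9.5.3.1. The authors deposited its processed signals, which are linear intensities with the background subtracted and no scaling between arrays. The series' value table held the same intensities on every array. A later normalization by the authors is not given in these sources.

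Outlier spots were left out (58 to 134 per array). From each log2 intensity the array's 75th percentile, also in log2, was subtracted (642 to 851 on wild type and 548 to 745 on VRK1-deficient arrays before log2), and spots of a probe were averaged. The number of arrays limits the precision. A probe was tested if 4 or more of 8 arrays showed it well above background. The genotypes were compared by lmFit and eBayes of limma 3.58.1 (R 4.3.3), with Benjamini-Hochberg adjustment over all 26962 tested probes and a threshold of 0.05. The fit was tested on simulated data with independent noise on each array. That test does not cover an array lying near the other genotype, such as wild type replicate 1. All 99 member probes carried the same symbol in RefSeq, 70 of them through the accession, and Lamb1-1 is given as Lamb1. Coordinates are as the array files give them, on build mm7. Computation used pandas 2.3.3, numpy 2.4.6, matplotlib 3.10.9 and Python 3.11.15.

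Members and lists were chosen with earlier results of these data known. Array values are given for the type IV collagens, the laminins (except 1 gene, which is counted in the class values but is not reported here) and the fibrillar genes and for every other member that was called or did not overlap at its brightest probe. Other probes are given where they differed in sign or call, and from the lists the called genes and up to 3 genes with the largest changes. Class values are descriptions with no test. Scaling alternatives were quantile normalization, none, and normexp background correction with an offset of 50. The filter on dim probes was dropped or set to all 8 arrays, and a gene's tested probes were averaged. Slide or replicate number was added as a block, each slide was fitted by itself, and fits were repeated without each array. Further tests were limma with an intensity trend and robust variances, and the methods' t-test with Benjamini-Hochberg adjustment.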

Additional observations from a re-analysis of the deposited data

Results flagged for a closer look

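In 66 groups of 4 arrays, for the 33 member genes given array by array, the highest or lowest array was compared with the other 3, and in 4 groups its gap exceeded the critical value of Dixon's test. Chance gives about 1 in 20 such groups. Col4a1 on wild type replicate 1 measured 4.35, and the other wild type arrays lay between 3.84 and 3.92. Col4a1 on VRK1-deficient replicate 4 measured 4.04, and the other VRK1-deficient arrays lay between 4.32 and 4.38. Col4a3 on VRK1-deficient replicate 4 measured 0.112, and the others lay between 0.27 and 0.30. Col4a4 on wild type replicate 3 measured 2.73, and the others lay between 2.41 and 2.46.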

How the results depend on the processing

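Of 77 member probes, 3 were called. The count was 6 with normexp, 0 of 99 tested with no filter on dim probes and 7 of 72 with the filter on all 8 arrays. It was 0 within slide 1, 1 with the methods' t-test and 10 with an intensity trend in limma. Calls over all tested probes moved too. They were 451 higher and 535 lower in the main fit, 750 and 637 with normexp, and 4 and 13 with no filter. With the filter on all 8 arrays they were 638 and 751, and within slide 1 they were 0 and 3. The t-test called 114 higher and 48 lower, and the trend 862 and 1054. With each array left out the member count ran from 0 to 32, the highest without wild type replicate 1. At an unadjusted p under 0.05 there were 34 of 99 tested member probes with no filter, against 27 of 77 in the main fit. There were 11 of 77 within slide 1 and 7 of 77 with no scaling. With no scaling the change was above 0 for 47 of 77 member probes, against 59. Genes called higher numbered 1, against 2 with quantile normalization, 0 with no scaling, 2 with normexp, 0 with no filter, 4 with the filter on all 8 arrays, 3 with the mean of probes, 0 within slide 1, 0 within slide 2, 0 with the t-test and 6 with the trend (0 to 21 with an array left out). Genes called lower numbered 1, against 0 with quantile normalization, 2 with no scaling, 2 with normexp, 0 with no filter, 2 with the filter on all 8 arrays, 0 with slide as a block and 0 within slide 1 (0 to 3 with an array left out). Genes called in the 5 partner lists numbered 6, against 1 with no scaling, 0 with no filter, 11 with the mean of probes, 0 within slide 1, 3 within slide 2, 3 with the t-test and 10 with the trend (0 to 36 with an array left out). The mean of probes gives no count of member probes.

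No scaling moved the median of all tested probes from 0.04 to -0.14, and 6.99% of all calls were then higher, against 45.7%. The basement membrane median, 0.27, was then 0.092, and it was 0.41 within slide 2 (0.22 to 0.39 with an array left out). The fibrillar median, 0.27, was 0.086 with no scaling and 0.15 with quantile normalization (0.16 to 0.33 with an array left out). The difference between class means, 0.06, lay between -0.01 and 0.13 with an array left out.

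The log2 change turned sign for 9 of the 33 genes given array by array, for which the alternatives were run. Col4a4 was -0.008 with quantile normalization, -0.16 with no scaling and -0.062 with the mean of probes, and ran from -0.012 to 0.096 with an array left out. Col4a6 was -0.17 with no scaling, -0.063 with normexp and -0.40 within slide 1, and ran from -0.16 to 0.18 with an array left out. Col4a5 was 0.13 with normexp and 0.042 within slide 1, and ran from -0.42 to 0.004. Col24a1 was -0.11, Col5a1 -0.011 and Lamb2 -0.014 with no scaling. Col2a1 was 0.012 with normexp. Col11a1 was 0.21 and Col27a1 -0.021 within slide 1. With an array left out, Col24a1 ran from -0.015 to 0.18, Col11a1 from -0.17 to 0.034 and Col27a1 from -0.18 (without wild type replicate 4) to 0.62. The cause was not tested.

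With the replicate number as a block, 6 member probes, 3 genes higher and 2 genes lower were called. Of all tested probes, that fit called 741 higher and 1539 lower, against 451 and 535 in the main fit. Deviations of samples with the same number correlated at 0.47, 0.07, 0.19 and -0.14, and 3 of 4 correlated best with their own number. These values do not settle whether the samples were paired. The labels name no pairing, and the main fit did not use one.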
